A study of Mus musculus with 18 samples.

Results

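The enzymes that write and remove DNA methylation were followed here in F9 cells, a mouse embryonal carcinoma line that differentiates towards endoderm when given retinoic acid. The 8 genes were Dnmt3a, Dnmt3b and Dnmt3l, Dnmt1 and Uhrf1, and Tet1, Tet2 and Tet3. They were chosen by symbol among the 19938 genes measured, and all 8 had a probe set with a single symbol. Where several such probe sets existed for a gene, its brightest on average was used. RNA levels come from 18 Affymetrix arrays and are on the log2 scale, so that a difference of 1 is a 2-fold change. Vehicle was ethanol (EtOH) at 48 h, on 2 arrays. Each of 4 retinoids had 1 array at each of 2, 6, 24 and 48 h, so every retinoid and time has n = 1. All-trans retinoic acid (ATRA) activates all 3 retinoic acid receptors (RARs), and BMS961, BMS753 and BMS641 are agonists of RARγ, RARα and RARβ in that order. ATRA, BMS753 and BMS641 were given at 1 µM and BMS961 at 0.1 µM, so no comparison with BMS961 was matched in dose. All groups shared the line and the culture medium, and the vehicle had no array at the earlier times.

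DNA methylation is placed on new sites by the de novo methyltransferases DNMT3A and DNMT3B, and DNMT3L, which has no activity of its own, binds and stimulates them. DNMT1 copies the pattern to the daughter strand after replication, guided by UHRF1, which recognises hemimethylated CpG. TET enzymes oxidise methylcytosine and so start its removal. Pluripotent cells carry much DNMT3B, DNMT3L and TET1 and change this set as they differentiate.

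The start sites of these genes differ in CpG, the dinucleotide that the enzymes act on. Below, 3 windows are shown, each of a gene that passed a test. Tet1 and Dnmt1 passed tests too, and their windows are not shown. Each is the 250 bases before a RefSeq start site on GRCm38.p6, plus strand, 5′ to 3′, with every CpG in capitals. All 8 genes matched the RefSeq table, with 15 windows. The Dnmt3a window lies at chr12:3806730-3806979, the Dnmt3l window at chr10:78042037-78042286 and the Uhrf1 window at chr17:56304063-56304312. The first and the last lie inside the spans of their genes, chr12:3801559-3914443 and chr17:56303337-56323486, which have other start sites, and the Dnmt3l window ends where its gene, chr10:78042287-78063622, begins.
Dnmt3a: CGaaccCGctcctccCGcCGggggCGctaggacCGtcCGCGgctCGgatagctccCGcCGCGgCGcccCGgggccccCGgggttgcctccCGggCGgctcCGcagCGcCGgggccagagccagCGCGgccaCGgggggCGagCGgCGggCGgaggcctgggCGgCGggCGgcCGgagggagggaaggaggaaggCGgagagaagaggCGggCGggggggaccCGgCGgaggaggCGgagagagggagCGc
Dnmt3l: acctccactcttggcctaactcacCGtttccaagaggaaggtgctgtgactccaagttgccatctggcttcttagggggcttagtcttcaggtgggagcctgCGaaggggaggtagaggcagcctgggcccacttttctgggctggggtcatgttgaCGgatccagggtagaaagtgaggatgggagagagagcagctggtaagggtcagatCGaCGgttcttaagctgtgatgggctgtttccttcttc
Uhrf1: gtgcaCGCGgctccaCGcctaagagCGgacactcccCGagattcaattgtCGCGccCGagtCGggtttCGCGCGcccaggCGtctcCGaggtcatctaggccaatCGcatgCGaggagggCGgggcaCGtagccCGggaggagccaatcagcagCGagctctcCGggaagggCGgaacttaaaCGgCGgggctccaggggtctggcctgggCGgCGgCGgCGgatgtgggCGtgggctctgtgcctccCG
The Dnmt3a window held 38 CpG, more than 98.1% of all 32851 windows in the table, whose median was 6. The Uhrf1 window held 30 and the only Dnmt3b window 21. The Dnmt3l window held 5, and the 2 other Dnmt3l windows held 4 and 3, all below that median. The 3 Dnmt1 windows held 2, 7 and 26, the other Uhrf1 window 10 and the other Dnmt3a windows 40 and 15. The only window of Tet2 held 51, the most of the 15, that of Tet3 17 and that of Tet1 15. Whether CpG number goes with the RNA levels was not tested. The RAR core motif AGGTCA, searched on both strands, was in 14.0% of all windows and occurred in the Uhrf1 window shown, in another Dnmt3a window and in the Tet1 window. A direct repeat of AGGTCA with 5 bases between the copies and the octamer ATGCAAAT were in no window of the 8 genes and in 0.00913% and 1.60% of all windows. The E2F form TTTCGCGC, in 0.256% of all windows, occurred in the Uhrf1 window shown and in 1 Dnmt1 window. The form TTTGGCGC was in none of the 15 and in 0.417% of all windows.

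On the arrays, Dnmt3l was lower and Dnmt3a higher with ATRA at both phases and with BMS961 late, each by more than 2-fold against vehicle. Uhrf1 and Tet1 were lower with ATRA late. No member passed the test with BMS753 or BMS641. Dnmt3b and Tet2 spanned 1.95 and 1.73 (log2) over the 18 arrays, and the vehicle arrays alone differed by 1.55 and 1.49. Tet3 stayed low.

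**Figure D1:**
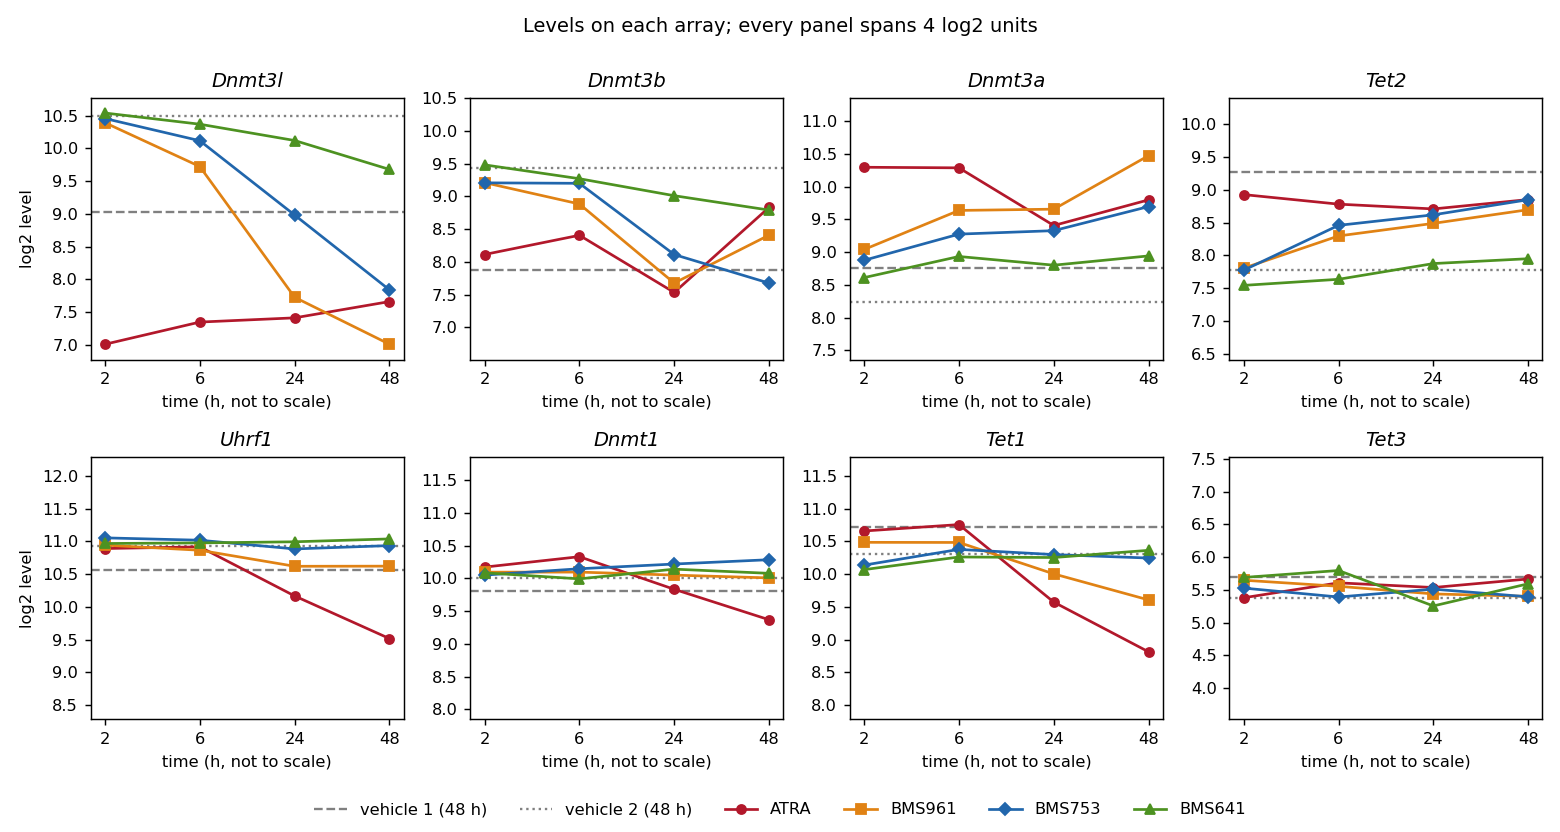
Log2 level of each gene on every array, by time in hours (not to scale); each panel spans 4 log2 units, points are single arrays joined within a retinoid, and the grey lines are the 2 vehicle arrays at 48 h. Dnmt3l spans 3.53, from 7.01 with ATRA at 2 h to 10.54 with BMS641 at 2 h, and the vehicle lines stand 1.46 apart in Dnmt3l and 1.55 apart in Dnmt3b.

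The vehicle arrays set the scale of what could be told from them. Their median absolute difference over all genes was 0.23, but they differed by over 1 in 3 of the 8 genes. Dnmt3b was 7.88 on vehicle array 1 and 9.43 on vehicle array 2, Dnmt3l 9.03 and 10.49, and Tet2 9.27 and 7.78. Only 0.757%, 0.923% and 0.868% of genes, in that order, differed more between these arrays. Vehicle array 1 and the ATRA arrays were also grouped as a set of 5 arrays. The mean correlation over all genes, after centring each gene, was 0.257 within these 5 arrays, 0.103 within the other 13 and -0.253 across. The first value includes pairs of ATRA arrays, so it does not by itself give the likeness of vehicle array 1 to ATRA. This grouping comes from the likeness of the arrays, since no batch is named in the labels, and it is called the array set below. The correlations are therefore no test of it. Whether the vehicle pair stands for separate cultures is not stated in the labels, and its spread may be technical. The limma tests used the mean of each retinoid's 2 and 6 h arrays (early) and of its 24 and 48 h arrays (late). Each mean was set against vehicle and against BMS641 of the same phase, the comparison matched in time. BMS641 is itself an agonist, so a difference from it lies between 2 retinoids and is not one from untreated cells. The p-values of these tests rest on the vehicle pair and on departures from common time steps, not on repeated cultures. A change is said to pass the test at a Benjamini-Hochberg adjusted p under 0.05 over all genes. Comparisons with vehicle share its arrays, and those with BMS641 share its arrays.

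Dnmt3l, the stimulating partner of the de novo enzymes, was the most variable of the 8. With ATRA its level was 7.01, 7.35, 7.41 and 7.66 at 2, 6, 24 and 48 h. All 4 values lay below both vehicle arrays, and the lowest was that at 2 h. BMS961 gave 10.39, 9.72, 7.73 and 7.01, and BMS753 gave 10.46, 10.12, 8.98 and 7.84. Both series began near the higher vehicle array and went down at every step, with a difference between 2 and 48 h of -3.38 (10.4-fold) with BMS961 and -2.62 (6.14-fold) with BMS753. BMS641 gave 10.54, 10.37, 10.12 and 9.68, a descent of 1.82-fold that stayed above vehicle array 1 throughout. ATRA times are those of the labels and could not be checked from the files, so what the 2 h values of Dnmt3l and of other genes with ATRA stand for rests on the labels.

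In the fit, Dnmt3l fell by 2.58 ± 0.41 (log2 ± SE; 5.98-fold) with ATRA early against vehicle (adjusted p = 0.0108). Late, it was lower with ATRA (-2.22 ± 0.41, 4.67-fold, adjusted p = 0.0140) and with BMS961 (-2.39 ± 0.41, 5.25-fold, adjusted p = 0.0165). With BMS753 late the difference was -1.35 ± 0.41 and did not pass (adjusted p = 0.322), and with BMS641 late it was 0.14, with a 95% interval from -0.76 to 1.04. Against BMS641, Dnmt3l fell by 3.28 ± 0.41 with ATRA early (9.69-fold, adjusted p = 0.00348) and was lower with ATRA late (-2.36 ± 0.41, adjusted p = 0.00539) and with BMS961 late (-2.53 ± 0.41, adjusted p = 0.0174). Much of the distance from vehicle depends on which vehicle array is used: ATRA at 48 h differed by -1.37 from vehicle array 1 and by -2.83 from vehicle array 2. With the array set as a block, which sets ATRA against vehicle array 1 alone, the late ATRA difference was -1.49 (adjusted p = 0.0901) and the early one -1.85 (adjusted p = 0.0216). The same block gave -2.08 with BMS753 late, which then passed (adjusted p = 0.0159). The late call with ATRA was also lost without the ATRA 24 h array (-1.72, adjusted p = 0.0562), the early one without the 2 h array (-2.22, adjusted p = 0.218), and that with BMS961 without either of its late arrays.

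Dnmt3b, the de novo enzyme prominent in pluripotent cells, varied in the same sense as Dnmt3l on many arrays but passed no test. Its level with ATRA was 8.11, 8.41, 7.53 and 8.83 at the 4 times, and with BMS961 9.21, 8.88, 7.68 and 8.41. The lowest value of both series was at 24 h, and both were higher again at 48 h. BMS753 gave 9.21, 9.20, 8.11 and 7.68, down at every step, and BMS641 gave 9.48, 9.27, 9.01 and 8.79. Of the 16 retinoid arrays, 12 lay between the vehicle arrays, 3 below both and 1 above both. Late against vehicle the differences were -0.47 (ATRA), -0.61 (BMS961), -0.76 (BMS753) and 0.25 (BMS641). The sign of these differences turned with the choice of vehicle array, so no direction is given. Against BMS641 late, they were -0.72 with ATRA (adjusted p = 0.343), -0.86 with BMS961 and -1.01 with BMS753.

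Dnmt3a, the de novo enzyme found more widely in differentiated cells, moved the other way. Its level was 8.75 and 8.24 on the vehicle arrays and 10.30, 10.29, 9.41 and 9.80 with ATRA at 2, 6, 24 and 48 h. BMS961 gave 9.04, 9.64, 9.66 and 10.47, up at every step, and BMS753 gave 8.87, 9.27, 9.33 and 9.69, also up at every step. BMS641 gave 8.61, 8.93, 8.80 and 8.94. In all, 15 of the 16 retinoid arrays lay above both vehicle arrays, and the other one, BMS641 at 2 h, lay between them. Dnmt3a rose by 1.79 ± 0.20 (3.47-fold) with ATRA early against vehicle (adjusted p = 0.00133), by 1.11 ± 0.20 (2.15-fold) with ATRA late (adjusted p = 0.0124) and by 1.57 ± 0.20 (2.96-fold) with BMS961 late (adjusted p = 0.00375). With BMS753 late the difference was 1.01 ± 0.20 and did not pass (adjusted p = 0.0866). Blocked on the array set, the late ATRA difference was 0.85 and did not pass (adjusted p = 0.105), while BMS753 late was 1.27 and did (adjusted p = 0.0142). Against BMS641 of the same phase, Dnmt3a rose by 1.52 ± 0.20 with ATRA early (adjusted p = 0.00431), 0.73 ± 0.20 with ATRA late (adjusted p = 0.0302) and 1.19 ± 0.20 with BMS961 late (adjusted p = 0.0193). The late ATRA call was lost when arrays were centred on their median (0.58, adjusted p = 0.0585), and without common steps neither it nor that of BMS961 passed (adjusted p = 0.0916 and 0.0671). Calls against vehicle were lost without the 48 h array of ATRA (adjusted p = 0.0861) or of BMS961 (1.31, adjusted p = 0.0866), late in both cases. BMS753 and BMS641, given at the same dose, differed late by 0.64 in Dnmt3a (95% interval from 0.21 to 1.07, adjusted p = 0.871) and by -1.49 in Dnmt3l (from -2.39 to -0.59, adjusted p = 0.715), and neither passed. The de novo genes thus split, with Dnmt3a higher where Dnmt3l was lower.

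**Figure D2:**
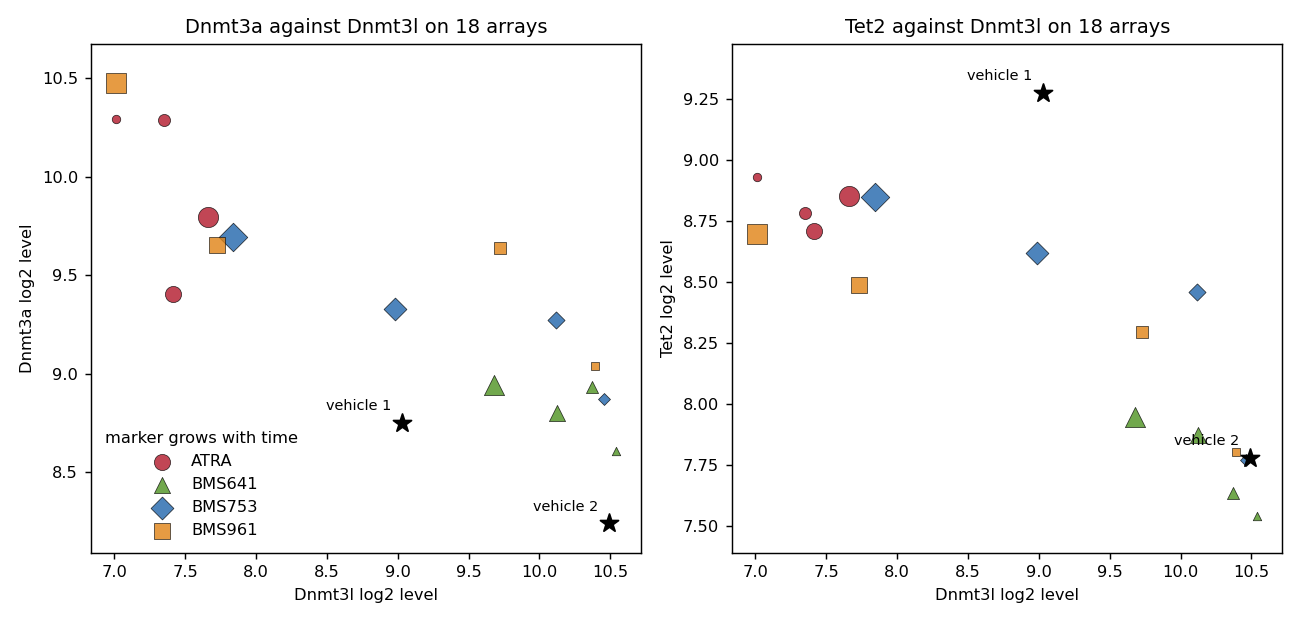
Log2 level of Dnmt3a (left) and Tet2 (right) against that of Dnmt3l on the 18 arrays; colours and shapes are retinoids, markers grow with time from 2 to 48 h, and stars are the vehicle arrays. ATRA arrays of all times lie at the left with the 24 and 48 h arrays of BMS961 and the 48 h array of BMS753, and vehicle array 1 lies apart in the Tet2 panel, at 9.27.

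Over the 18 arrays, the Pearson correlation of Dnmt3a with Dnmt3l was -0.853, and that of Dnmt3b with Dnmt3l was 0.788. Within the 12 arrays of the BMS compounds the values were -0.882 and 0.869. These arrays share ligands and times, so the correlations are descriptions without a test.

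Of the maintenance genes, Uhrf1 was lower with ATRA late against both vehicle and BMS641, and Dnmt1 against BMS641. Uhrf1 was 10.57 and 10.93 on the vehicle arrays and 10.89, 10.92, 10.17 and 9.52 with ATRA at the 4 times. Its early ATRA values lay between the vehicle arrays and both late ones below them. BMS961 gave 10.94, 10.87, 10.62 and 10.62, BMS753 between 10.89 and 11.06, and BMS641 between 10.97 and 11.04. Uhrf1 fell by 0.91 ± 0.18 with ATRA late against vehicle (1.87-fold, adjusted p = 0.0169) and by 1.17 ± 0.18 against BMS641 (2.26-fold, adjusted p = 0.00305). The block gave -0.73 against vehicle (adjusted p = 0.142), and without the ATRA 48 h array it was -0.56 (adjusted p = 0.166). With BMS961 late against BMS641 it was -0.40 and did not pass (adjusted p = 0.425).

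Dnmt1, the maintenance methyltransferase itself, moved less. It was 9.80 and 10.01 on the vehicle arrays, 10.17, 10.33, 9.83 and 9.37 with ATRA, between 10.01 and 10.10 with BMS961, between 10.05 and 10.28 with BMS753 and between 9.99 and 10.14 with BMS641. Only the ATRA 48 h array was below both vehicle arrays, and 12 of the 16 retinoid arrays were above both. Late with ATRA, Dnmt1 differed from vehicle by -0.31 ± 0.14 (adjusted p = 0.255) and fell by 0.51 ± 0.14 against BMS641 (1.42-fold, adjusted p = 0.0331). That call was lost without the ATRA 48 h array (-0.28, adjusted p = 0.300), and without either late BMS641 array or either early BMS961 array.

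Both maintenance genes are made mostly by dividing cells, and the S phase genes were measured beside them. Of 20 S phase genes, none passed limma's test in ATRA late against vehicle (4 with an unadjusted p under 0.05), where their median difference was -0.25 and 4.71% of all genes passed. That share, like those beside unadjusted counts below, is for the adjusted p. In this comparison Dnmt1, at an unadjusted limma p of 0.0508, ranked 3973 by p among the 19938 genes. The 4 of 20 are thus near the share of all genes at the unadjusted threshold. Against BMS641, where 14.8% of all genes passed, 6 of the 20 were lower, with a list median of -0.39 and a median of all genes of -0.04, and with the array-set block none of the 6 passed. The mean level of these 20 genes was 10.03 and 10.33 on the vehicle arrays, 9.72 to 10.07 with ATRA late, 10.17 to 10.28 with BMS961 late and 10.35 to 10.36 with BMS641 late. Their part in the Uhrf1 and Dnmt1 values was not tested. In these bulk samples, fewer cells of a type and less RNA per cell cannot be told apart. The median level of all genes also differed between the ATRA late and the vehicle arrays, by 0.14, and centring the arrays moved the median difference of all genes from -0.02 to -0.16 against vehicle and from -0.04 to -0.20 against BMS641. The genes that passed were 660 higher and 280 lower with ATRA late against vehicle and 394 and 370 after centring, and 1557 and 1391 against BMS641 and 1089 and 2479 after centring. The falls of Uhrf1 and Tet1 passed in both comparisons with centring as well.

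Tet1, a TET enzyme of pluripotent cells, was lower late than early with ATRA. On the vehicle arrays it was 10.73 and 10.31. With ATRA it was 10.66, 10.76, 9.57 and 8.81, so that the early arrays stood near the higher vehicle array and the 48 h array was the lowest of all 18. BMS961 gave 10.49, 10.48, 10.00 and 9.61, down from 6 h on, whereas BMS753 stayed between 10.14 and 10.38 and BMS641 between 10.07 and 10.36. Tet1 fell by 1.33 ± 0.19 with ATRA late against vehicle (2.51-fold, adjusted p = 0.00489) and by 1.12 ± 0.19 against BMS641 (2.17-fold, adjusted p = 0.00539). It was the only one of the 8 to pass in ATRA late against vehicle with the array set as a block, at -1.53 (adjusted p = 0.00960). The call was lost without the ATRA 48 h array (adjusted p = 0.0589). With BMS961 late it was -0.71 ± 0.19 against vehicle (adjusted p = 0.124) and -0.50 ± 0.19 against BMS641 (adjusted p = 0.325), and neither passed, although without vehicle array 2 the first was -0.92 (adjusted p = 0.0407). The other 2 probe sets of Tet1 gave -1.29 and -1.40 for ATRA late minus vehicle, beside -1.33 for the one used.

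A comparison added after seeing the data tested this change with time. The difference of ATRA from BMS641 in Tet1 was 0.54 early and -1.12 late, and the late minus early difference was -1.66 ± 0.28 (adjusted p = 0.0376). The early difference did not pass by itself, and with the array set as a block it was 0.13 (adjusted p = 0.922). Against vehicle, Tet1 with ATRA early differed by 0.19 (adjusted p = 0.866). In the late minus early comparison Tet1 was the only one of the 8 genes to pass, where 0.301% of all genes did. The call was lost when any retinoid array but that of ATRA at 24 h was left out, with adjusted p-values between 0.0655 and 0.323, and after quantile normalization (adjusted p = 0.0518). For Uhrf1 the late minus early difference was -1.11 (adjusted p = 0.0998), and for Dnmt1 -0.72 (adjusted p = 0.157). In the same comparison none of the 8 passed with BMS961 or BMS753, where 0.00502% and 0% of all genes did and 3 and 1 of the 8 had an unadjusted p under 0.05. The largest of these differences, for Dnmt3l, were -2.13 with BMS961 (adjusted p = 0.807) and -1.32 with BMS753.

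Tet2 shows how far the vehicle pair limits the comparison. With ATRA it was 8.93, 8.78, 8.71 and 8.85, with BMS961 7.80, 8.30, 8.49 and 8.70, and with BMS753 7.77, 8.46, 8.62 and 8.85. BMS641 gave 7.54, 7.63, 7.87 and 7.95. The 3 BMS compounds went up at every step, while ATRA was already at its highest at 2 h. No retinoid array reached vehicle array 1 (9.27), 3 lay below vehicle array 2 (7.78), namely BMS641 at 2 and 6 h and BMS753 at 2 h, and 13 lay between the vehicle arrays. Late against vehicle it differed by 0.25 with ATRA, and by 1.00 without vehicle array 1 (adjusted p = 0.00759). BMS641 against vehicle was -0.94 early and -0.62 late, and without vehicle array 2 both passed, at -1.69 (adjusted p = 0.00212) and -1.36 (adjusted p = 0.00866). Against BMS641 the differences were 1.27 ± 0.35 with ATRA early (adjusted p = 0.116), 0.87 ± 0.35 with ATRA late (adjusted p = 0.126), 0.68 with BMS961 late and 0.82 with BMS753 late, and none passed. When the fit used the 16 retinoid arrays without vehicle, the ATRA values passed, early (adjusted p = 0.00225) and late (adjusted p = 0.00423), whereas the array set as a block turned them to -0.23 and -0.63. Over the 18 arrays Tet2 had a correlation of -0.807 with Dnmt3l, and of -0.892 over the 16 retinoid arrays.

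Tet3, the third TET enzyme, was low. Its mean level, 5.53, was below the median gene level of 5.95, and its values lay between 5.25 and 5.80 on all 18 arrays, with 5.70 and 5.38 on the vehicle arrays. It passed no test. Its other probe set followed it poorly (Pearson r of 0.372 over the 18 arrays) and lay between 4.86 and 5.97. That probe set gave 0.38 for ATRA late minus vehicle and 0.68 for ATRA late minus BMS641 late. The one used gave 0.060 and 0.18.

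**Figure D3:**
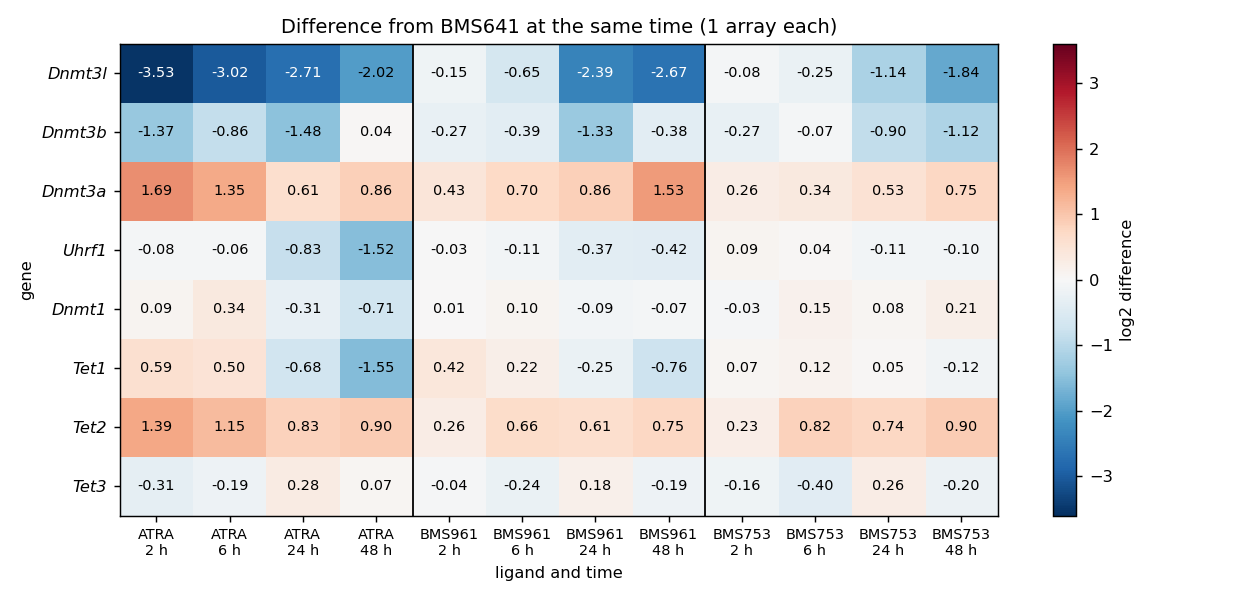
Log2 difference of ATRA, BMS961 and BMS753 from BMS641 at the same time (1 array each, no error), by gene; red is higher and blue lower than BMS641. Dnmt3l runs from -3.53 at 2 h to -2.02 at 48 h with ATRA, but from -0.15 to -2.67 with BMS961 and from -0.08 to -1.84 with BMS753.

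Set beside all genes, the counts of the 8 that passed were as follows. With ATRA early against vehicle, 2 of the 8 passed (Dnmt3a higher, Dnmt3l lower), where 1.25% of all genes passed. With ATRA late, 4 passed (Dnmt3a higher, and Dnmt3l, Uhrf1 and Tet1 lower), where 4.71% of all genes passed. With BMS961 late, 2 passed (Dnmt3a higher, Dnmt3l lower), where 1.26% passed. BMS753 late had none of the 8, where 0.186% of all genes passed limma's test and 3 of the 8 had an unadjusted p under 0.05. BMS641 late had none, where 0% passed and no unadjusted p was under 0.05. Early against vehicle, none passed with BMS961 (0.0401% of all genes), BMS753 (0%) or BMS641 (0%), and 1 of the 8 had an unadjusted p under 0.05 in each.

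Against BMS641, 2 of the 8 passed with ATRA early (Dnmt3a higher, Dnmt3l lower), where 1.60% of all genes passed. With ATRA late, 5 passed (Dnmt3a higher, and Dnmt3l, Uhrf1, Tet1 and Dnmt1 lower), where 14.8% of all genes passed. With BMS961 late, 2 passed (Dnmt3a higher, Dnmt3l lower), where 1.19% passed. None passed with BMS961 early (0.00502% of all genes, 1 of the 8 with an unadjusted p under 0.05), BMS753 early (0%, none) or BMS753 late (0%, 4 of the 8). All the ATRA calls against BMS641 were lost with the array set as a block, since ATRA and BMS641 are then compared only through the vehicle pair. The early differences became -1.81 in Dnmt3l and 1.01 in Dnmt3a, and the late ones -0.90 in Dnmt3l, 0.22 in Dnmt3a, -0.81 in Uhrf1, -0.30 in Dnmt1 and -1.53 in Tet1, with adjusted p-values between 0.177 and 0.850. Both BMS961 late calls held with the block. Leaving out arrays ended further calls against BMS641. The early ATRA calls were lost without the ATRA 2 h array or either early BMS641 array. Those of Dnmt3l, Uhrf1 and Tet1 with ATRA late were lost without the BMS641 48 h array, with adjusted p-values of 0.0853, 0.0698 and 0.106, and that of Tet1 also without the ATRA 48 h array. That of Dnmt3a with ATRA late and both BMS961 calls were lost when any single array of the 4 late ones compared was left out. Over the 4 matched times, 13 of 24 pairs of gene and ligand had a difference from BMS641 of a single sign throughout. For each the exact two-sided sign-flip test gave p = 0.13, the smallest that 4 times allow and the value that any single sign gives. All ligands were set against the same 4 BMS641 arrays, so the pairs are not independent. The share of all genes with a single sign is not given, so the count is a description only.

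**Figure D4:**
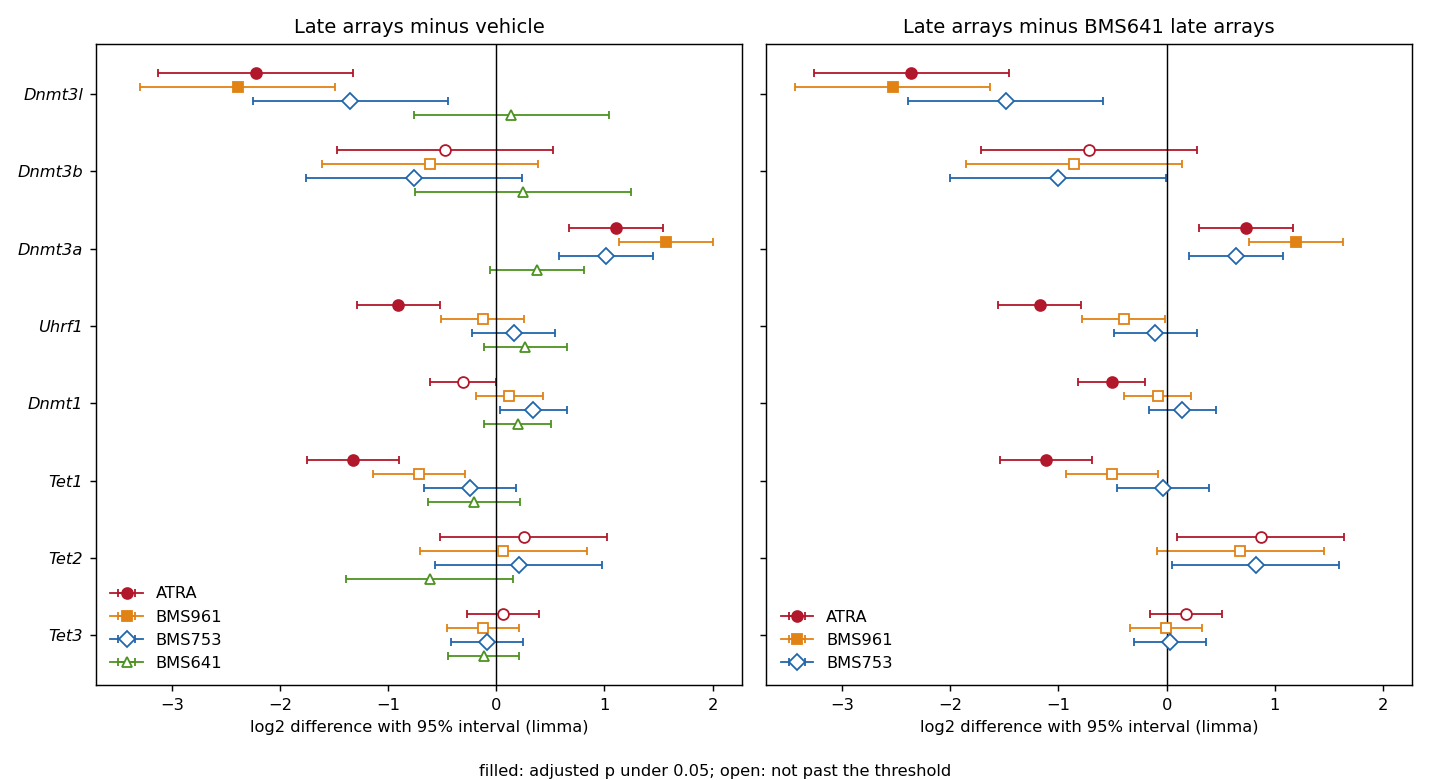
Log2 difference of the late arrays (24 and 48 h) from vehicle (left) and from the BMS641 late arrays (right), with 95% intervals of the limma fit; filled points passed the test. Dnmt3l and Dnmt3a pass with ATRA and BMS961 in both panels, Uhrf1 and Tet1 with ATRA, Dnmt1 with ATRA in the right panel, and Dnmt3b, Tet2 and Tet3 in none.

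The other late pairs of retinoids were also compared, after seeing the data. Between ATRA and BMS753, both at 1 µM, Uhrf1 (-1.07 ± 0.18, adjusted p = 0.00901), Tet1 (-1.08 ± 0.19, adjusted p = 0.0116) and Dnmt1 (-0.65 ± 0.14, adjusted p = 0.0221) were lower with ATRA, where 8.02% of all genes passed. Dnmt3l differed by -0.87, with a 95% interval from -1.78 to 0.03 (adjusted p = 0.216). Between ATRA and BMS961, whose doses differed, only Uhrf1 of the 8 passed (-0.78 ± 0.18, adjusted p = 0.0478), where 2.15% of all genes did, and Dnmt3l differed by 0.17, with an interval from -0.73 to 1.07. BMS961 and BMS753 had none of the 8, where 0.0451% of all genes passed and 3 of the 8 had an unadjusted p under 0.05. The ATRA calls here were lost with the array set as a block. Those against BMS753 were also lost without the ATRA 48 h array or either late BMS753 array, and that against BMS961 without any retinoid array but that of ATRA at 24 h, and after centring (adjusted p = 0.0527).

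The genes whose levels ran most like each member were found by Pearson correlation over the 18 arrays among 9968 genes above the median level, as descriptions with no test. For Dnmt3l they were Ddx58 (0.960), Ptk2b (0.960) and Gstm1 (0.950), and for Dnmt3b Trp53bp1 (0.940), Gja1 (0.916) and Lratd2 (0.895). For Dnmt3a they were Cgnl1 (0.939), Amotl1 (0.913) and Aifm2 (0.913). For Uhrf1 they were Pfas (0.976), Tars2 (0.965) and Heatr1 (0.962). For Tet1 they were Mdn1 (0.907), Pou5f1 (0.900) and Tdgf1 (0.894), and for Tet2 Tmeff1 (0.917), Stox2 (0.913) and Slc2a3 (0.913). Pou5f1 and Tdgf1 are markers of undifferentiated cells, and Pfas makes purines. A correlation does not give the size of a change: over the 18 arrays Pou5f1 spanned only 0.41, Tdgf1 2.21 and Tet1 1.94. Over the 16 retinoid arrays these values lay between 0.887 and 0.978. Dnmt1 and Tet3 spanned less than 1 and were not matched.

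Genes that work with the 8 were read from 4 lists, of whose 71 genes 64 were measured. In ATRA late, 4.71% of all genes passed against vehicle and 14.8% against BMS641. Of 14 maintenance genes and regulators, none passed limma's test in ATRA late against vehicle (6 with an unadjusted p under 0.05), and 1 was higher and 3 lower against BMS641. Of 17 repressors that work with DNA methylation, none passed in either (2 and 6 with an unadjusted p under 0.05), and of 11 methyl-CpG readers none passed against vehicle (1 with an unadjusted p under 0.05) and 1 was lower against BMS641. Of 22 genes of demethylation, repair and Tet partners, Gadd45b, a stress gene linked to demethylation, rose by 1.12 ± 0.18 in ATRA late against vehicle, and Hmces (-1.98 ± 0.40) and Prdm14 (-1.50 ± 0.25) fell. PRDM14 is a pluripotency factor that represses the de novo enzymes. Gadd45b also rose with BMS961 late (1.20 ± 0.18) and BMS753 late (1.08 ± 0.18), and early with ATRA (1.62 ± 0.18) and BMS961 (1.38 ± 0.18), and these calls held with the block. With the array set as a block Gadd45b with ATRA late was 0.91 (adjusted p = 0.0744), while Hmces, at -1.11 (adjusted p = 0.0257), and Prdm14, at -2.01, still passed.

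Germ line genes listed as silenced by promoter methylation, and imprinted genes, were read the same way, and methylation itself was not measured. Of all genes, 4.71% passed in ATRA late and 1.26% in BMS961 late against vehicle. Of 20 germ line genes, Taf7l (2.30 ± 0.42), Tex11 (2.09 ± 0.32), Tdrkh (1.24 ± 0.28) and Dazl (0.66 ± 0.17) rose with ATRA late against vehicle, Zfp42 fell by 1.26 ± 0.22, and the list median was 0.31 against -0.02 for all genes. Zfp42 is also a marker of undifferentiated cells. With BMS961 late none of the 20 passed (3 with an unadjusted p under 0.05). In ATRA late against BMS641, where 14.8% of all genes passed, 7 of the 20 were higher and 2 lower. Of 19 imprinted genes, Dlk1 (1.53 ± 0.33), Plagl1 (1.50 ± 0.28) and Grb10 (0.96 ± 0.24) rose with ATRA late, and Plagl1 (1.84 ± 0.28) with BMS961 late. With the array set as a block, 4 of the 16 list genes called in ATRA late against vehicle still passed, none of them a germ line or imprinted gene that rose, and all 4 called in BMS961 late still passed. Of 40 list genes called in ATRA late against BMS641, 1 still passed.

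Cell type markers were read on the same arrays. All 6 embryonal carcinoma markers were above the median gene level on the vehicle arrays, where their mean was 11.41 and 11.47, and it was 10.71 to 10.98 with ATRA late, 10.72 to 11.04 with BMS961 late and 11.49 to 11.50 with BMS641 late. In ATRA late against vehicle, where 4.71% of all genes passed, 3 of the 6 fell (Utf1, Sox2 and Tdgf1). In BMS961 late, where 1.26% passed, Utf1 fell (-0.93 ± 0.11). The mean of 6 endoderm markers was 6.77 and 7.49 on the vehicle arrays, 7.65 to 9.79 with ATRA late, 7.60 to 9.09 with BMS961 late and 6.79 to 6.99 with BMS641 late. With ATRA early, where Dnmt3l was 7.01 and 7.35, the carcinoma mean was 11.37 and the endoderm mean 7.29 to 7.75. With BMS753 late, where Dnmt3l was 8.98 and 7.84, these means were 11.31 to 11.43 and 7.07 to 7.41. These 2 list means thus did not follow Dnmt3l on all arrays. Single markers could differ from the means. In ATRA early against vehicle, where 1.25% of all genes passed, 1 of the 6 carcinoma markers passed and none of the 6 endoderm markers. It was Sox2, which was lower (-0.89 ± 0.16, adjusted p = 0.0212), also with the array-set block (-0.98, adjusted p = 0.0254). Of the 6 endoderm markers, Gata6 (3.35) and Gata4 (2.03) rose with ATRA late against vehicle, and Gata6 (3.62) with BMS961 late. Under the array-set block, the late ATRA calls of Gata6 (2.83, adjusted p = 0.0521), Gata4 (1.54, adjusted p = 0.215), Sox2 (adjusted p = 0.133) and Tdgf1 (adjusted p = 0.142) were lost, and those of Utf1 with both retinoids and of Gata6 with BMS961 were kept. Vehicle array 1, which had the lower Dnmt3l and Dnmt3b, was also higher than vehicle array 2 in Col4a1 by 1.20, Gata6 by 1.05, Gata4 by 0.98, Sox17 by 0.84 and Lamb1 by 0.29, while the difference in Sparc was -0.0081. Among the carcinoma markers the same difference was -0.91 in Lin28a, 0.64 in Dppa5a and between 0.12 and 0.19 in the other 4. Among 6 fibroblast markers it lay between -0.094 and 1.32, the highest in Pdgfra. Of 6 fibroblast markers none passed in ATRA late against vehicle (2 with an unadjusted p under 0.05), and their mean was 5.36 and 5.78 on the vehicle arrays, 5.69 to 6.17 with ATRA late, 5.53 to 6.28 with BMS961 late and 5.38 to 5.61 with BMS641 late. In ATRA late against BMS641, where 14.8% of all genes passed, 4 of 6 endoderm markers were higher and 3 of 6 carcinoma markers lower. In BMS961 late against BMS641, where 1.19% passed, 1 endoderm marker was higher and 1 carcinoma marker lower. Among the fibroblast markers, Pdgfra, which primitive endoderm also expresses, was higher against BMS641 late with ATRA (3.17 ± 0.69) and BMS961 (3.33 ± 0.69). Thy1 was lower with both (-0.54 ± 0.16 and -0.84 ± 0.16). Under the array-set block the ATRA calls were lost and the BMS961 calls kept. The part of the share of differentiated cells in the values of the 8 genes was not tested.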

How the data were processed

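RNA of F9 cells, labelled with biotin, was hybridised to 18 Affymetrix arrays. Log2 levels of 35556 probe sets were deposited. Per the submitters' processing notes, the authors used RMA in Affymetrix Expression Console 1.1. Levels lay between 2.05 and 14.36 and array medians between 5.31 and 5.47. No further scaling was done.

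Of the probe sets, 21789 had 1 gene symbol in the platform annotation, 1621 had several and 12146 had none or were not listed. For 999 genes with several probe sets the brightest was used, which left 19938 genes, with no filter on low levels. The number of arrays limits the precision.

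Arrays were grouped from the labels. The limma package (3.58.1, in R 4.3.3) fitted all 18 arrays together, with 9 means (1 for vehicle, 1 per retinoid and phase) plus a step shared by all retinoids between 2 and 6 h and another between 24 and 48 h, with 7 residual df (eBayes prior df 4.55). A gene was called where its Benjamini-Hochberg adjusted p, over 19938 genes within a comparison, was under 0.05. The script was tested on simulated data. Tables and figures came from Python 3.11.15, numpy 2.4.6, pandas 2.3.3 and matplotlib 3.10.9. The members, gene lists and comparisons were chosen with earlier results of these data known. All 8 members are named, with the 3 genes most like each member that spans at least 1, and list genes that passed in ATRA late or BMS961 late against vehicle, at most 4 in each direction per list; the BMS753 values, vehicle values of markers and likeness to other members were named besides. Alternatives were quantile normalization, median-centred arrays, only genes brighter than the median, averaged probe sets, robust eBayes with a trend, no common steps, the array set as a block, a minimum of 2-fold, the 16 retinoid arrays alone, and leaving out each array. Late pairs without BMS641 and the late minus early differences were added after seeing the data. RefSeq start sites of GRCm38.p6 gave the promoter windows.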

Additional observations from a re-analysis of the deposited data

Results flagged for a closer look

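The difference of ATRA from BMS641 in Tet1 changed between the early and the late arrays. It was 0.54 early and -1.12 late, and the change of -1.66 passed limma's test of that difference over all genes (adjusted p = 0.0376). The early difference did not pass the test by itself. Each value rests on 2 arrays of a ligand. The comparison was added after seeing the data, and the call depends on single arrays, as given with the Tet1 values.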

How the results depend on the processing

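Of 22 calls of a gene in a comparison, 149 of 168 values under other settings kept direction and call and 19 lost the call. With single arrays left out, 319 of 396 kept both and 77 lost the call; none turned direction. Where a vehicle array was left out, the lone one was assumed to vary like the other groups.

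Blocked on the array set, the count of the 8 genes called became 1 in ATRA late against vehicle, 2 in BMS753 late against vehicle, 0 in ATRA early and 0 in ATRA late against BMS641, 0 for ATRA late against BMS961 or BMS753, and 2 for ATRA late minus early. The 2-fold minimum gave 3 in ATRA late against BMS641 and 0 against BMS961, where centring also gave 0. Without common steps, BMS961 late against BMS641 had 1. For ATRA late minus early, quantile normalization gave 0 and the 16 retinoid arrays 2. The share of all genes that passed is not given beside these counts or those with arrays left out below. It also moved with the setting: in ATRA late against BMS961, 254 genes were higher and 174 lower, and 135 and 99 after centring. These counts are therefore no result about the 8 genes by themselves.

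The block also turned values that passed no test: Dnmt3b to 0.30 and Tet2 to -0.49 in ATRA late against vehicle, Dnmt3b to -0.53 and Tet2 to 0.13 in BMS641 late against vehicle, Dnmt3b to 0.43 and Tet2 to -0.23 in ATRA early against BMS641, and Dnmt3b to 0.83 and Tet2 to -0.63 in ATRA late against BMS641. The cause was not tested.

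With each array left out in turn, the counts against vehicle ranged from 1 to 3 (ATRA early), 1 to 5 (ATRA late), 0 to 3 (BMS961 late), 0 to 2 (BMS753 late and BMS641 early) and 0 to 1 (BMS641 late, BMS961 early and BMS753 early). Against BMS641 they ranged from 0 to 3 (ATRA early), 0 to 6 (ATRA late) and 0 to 2 (BMS961 late), and from 0 to 3 for ATRA late against BMS961 or BMS753 and for ATRA late minus early. Late against vehicle, Dnmt3b ranged from -1.25 to 0.30 (ATRA), -1.39 to 0.16 (BMS961), -1.53 to 0.014 (BMS753) and -0.53 to 1.02 (BMS641), and Tet2 from -0.49 to 1.00, -0.68 to 0.81, -0.54 to 0.95 and -1.36 to 0.13 in the same order. The ends came from leaving out a vehicle array.

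No paired analysis was possible because only the vehicle has replicate numbers to pair samples by; pairs of arrays matched by time, each ligand with BMS641, are given with the results. With 1 array for each retinoid and time, single times have no test, and p-values do not measure the spread between cultures.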
